A study of Drosophila melanogaster with 8 samples.

Results

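The fat body of Drosophila melanogaster stores lipid and secretes blood proteins, and 9 genes of its storage and secretory work were examined among the 17321 genes measured. They were chosen by symbol: apolpp, Lsp2 and Adh as genes of secreted or abundant fat body products, Lsd-1, Lsd-2 and bmm as genes of the lipid droplet surface, and FASN1, ACC and Desat1 as genes of fatty acid synthesis. RNA was compared between embryos mutant for extra sex combs (esc), which lacked the gene's function both from the mother and in the zygote, and embryos of the laboratory strain Oregon R (OrgR), the wild type. The esc gene encodes a subunit of Polycomb repressive complex 2, which methylates histone H3. Every library came from whole embryos of stages 14 and 15, in a pool of 200 or more, with no sorting of tissue. The esc allele is not given in the labels. Each genotype had 4 libraries, numbered 1-1, 1-2, 2-1 and 2-2. The 2 libraries with the same first number form a set and were averaged into 1 sample, so that n = 2 sets per genotype.

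Embryos store triglyceride in lipid droplets, which are coated by perilipins and broken down by lipases of the adipose triglyceride lipase type. Fat body cells form from mesoderm under the GATA factor gene srp, and they load lipid onto lipophorin particles that carry it through the hemolymph to other tissues. New fatty acids are made from acetyl-CoA by acetyl-CoA carboxylase and fatty acid synthase, and a desaturase then introduces a double bond.

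Values are the authors' RPKM, reads scaled to gene length and library size, so levels of different genes can be set side by side. Changes were tested on log2(RPKM + 1) with limma across the 10547 genes whose mean over the 8 libraries reached 0.5 RPKM. A gene low in 1 genotype could pass this filter through the other alone, and its change is then partly fixed by the filter. A gene is said to have risen or fallen in esc where the Benjamini-Hochberg adjusted p over all those genes was under 0.05, and all adjusted p-values below are from this limma test. The log2 changes are esc minus OrgR on that scale, with standard errors. Relative depths of the libraries, estimated from ratios of low values between them, lay between 84.5% and 100% of the deepest. The targeted gene, esc, had 3.56 to 4.40 RPKM in the esc libraries and 10.7 to 12.4 RPKM in the OrgR libraries, and it fell (log2 change -1.40 ± 0.11, adjusted p = 0.00267). Over all genes tested the log2 change had a median of -0.18 as deposited and -0.02 under median-of-ratios scaling. Of 12 tested late cuticle protein genes, which are switched on toward the end of embryogenesis, 10 rose, and Lcp1 and Lcp3 did not pass. The 14 listed summed to between 5271 and 10368 RPKM in the esc libraries and between 16.5 and 18.5 RPKM in the OrgR libraries. The age of the embryos in a pool and their genotype therefore cannot be told apart for any gene below. Strain background cannot be told apart from genotype either, since every wild-type library came from OrgR and every other library from esc mutants.

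All 9 genes passed the filter on low values, and 3 rose (Adh, FASN1 and ACC), 3 fell (Lsp2, bmm and Lsd-1) and 3 did not pass (Lsd-2, Desat1 and apolpp). Across all tested genes 20.9% rose and 31.6% fell, 52.5% in all, so that the share of these genes that changed is near that of the transcriptome. Their median log2 change was -0.10, beside -0.18 for all tested genes. Only Adh and Lsp2 changed by at least 1 on the log2 scale, and both passed the threshold. Of all tested genes, 12.6% passed it with a rise of at least that size and 1.89% with such a fall. In 7 of the 9 the libraries of the genotypes did not overlap, which holds for 71.5% of all tested genes. Of these, 3 were higher in esc (26.2% of all tested genes) and 4 were lower (45.3% of all tested genes). The calls of this group are not equally firm. That of Adh was kept in all 24 other settings of the analysis, that of bmm and of FASN1 in 20 each, that of Lsp2 in 19 of 23, that of ACC in 17 of 24 and that of Lsd-1 in 13 of 24.

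**Figure D1:**
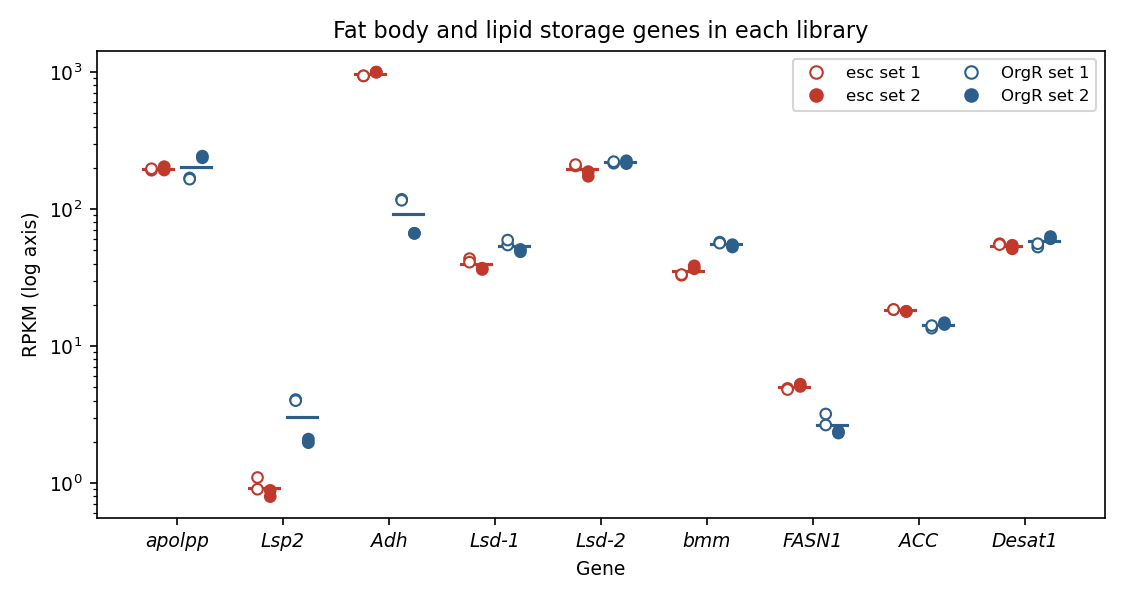
RPKM of each gene (log axis) in the 4 esc libraries (red) and 4 OrgR libraries (blue), with open points for set 1, filled points for set 2 and a bar at the mean of the set means. Adh lies between 938 and 1001 RPKM in esc and between 66.4 and 118 RPKM in OrgR, while the points of apolpp and Desat1 overlap between genotypes.

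Among the genes of fat body products, Adh rose 10.6-fold in esc, Lsp2 fell and apolpp did not pass. Adh encodes alcohol dehydrogenase, which is abundant in the larval fat body and gut. It had 938, 938, 996 and 1001 RPKM in esc libraries 1-1, 1-2, 2-1 and 2-2, and 118, 116, 66.6 and 66.4 RPKM in the OrgR libraries of the same numbers. Every esc library was thus far above every OrgR library, and the OrgR sets differed more from each other than the esc sets did. The means were 968 ± 43 RPKM in esc and 91.6 ± 36 RPKM in OrgR (SD, n = 2 sets each), a 10.6-fold difference (log2 change 3.44 ± 0.28, adjusted p = 0.0028). Of all tested genes, 97.4% had a lower log2 change. The log2 change was 3.04 without OrgR set 2 and 3.84 without OrgR set 1, the lowest and highest values over the alternatives.

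In dm6, Adh occupies 2L from 14615552 to 14618902, plus strand. It shares its locus with Adhr, an Adh-related gene that is transcribed together with it. In the Ensembl annotation 93.9% of the exonic bases of Adh are also exonic in Adhr, and 100% of those of Adhr in Adh. The split of reads between the pair is therefore uncertain, and the Adhr value is not independent of that of Adh. Adhr had 11.7, 10.6, 13.9 and 16.1 RPKM in the esc libraries and 6.02, 5.90, 4.38 and 5.11 RPKM in the OrgR libraries. It rose as well, and less (log2 change 1.14 ± 0.19, adjusted p = 0.012), with an adjusted p of 0.0565 without OrgR set 2. Per library, the Adh value was 62.1 to 88.8 times that of Adhr in esc and 13.0 to 19.6 times in OrgR. The gene osp lies on the other strand, with Adh inside its span. It had 49.1 RPKM in esc and 37.6 RPKM in OrgR and did not pass (log2 change 0.36, adjusted p = 0.102). The esc gene itself lies on the same chromosome arm as Adh, from 11827204 to 11829405. The part of strain background in the change of Adh was not tested.

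Lsp2 encodes a larval serum protein, a storage hexamerin that the fat body secretes in quantity during larval life. Its level in these embryos was low, at 0.901, 1.10, 0.884 and 0.796 RPKM in esc libraries 1-1, 1-2, 2-1 and 2-2 and 4.07, 3.99, 2.09 and 1.97 RPKM in the OrgR libraries of the same numbers. All esc libraries lay below all OrgR libraries, and OrgR set 2 was lower than OrgR set 1. The means were 0.919 ± 0.11 RPKM in esc and 3.03 ± 1.4 RPKM in OrgR (SD, n = 2 sets each), 3.30-fold lower in esc. The log2 change was -1.03 ± 0.27 (adjusted p = 0.0323), and only 1.72% of tested genes had a lower one. The call ended under median-of-ratios scaling (adjusted p = 0.0536), without esc set 1 (0.0828), without esc set 2 (0.112) and without OrgR set 1 (0.0541). The log2 change was -1.55 with a pseudocount of 0.1, -1.57 after quantile normalization and -0.66 without OrgR set 1, so that its size depends on these choices. Lsp2 is a gene of a single exon on 3L, from 12129393 to 12131869 on the plus strand, and 84.6% of its exonic bases lie opposite an annotated antisense RNA. Strand was not read in these libraries, so reads over the shared bases cannot be assigned to either gene by strand. The antisense gene was listed at the floor of 0.001 RPKM in all 8, which cannot show that it was silent.

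The apolpp gene encodes the precursor of apolipophorins I and II, the structural proteins of the lipophorin particle. It had 192, 197, 193 and 204 RPKM in esc libraries 1-1, 1-2, 2-1 and 2-2 and 169, 165, 237 and 243 RPKM in the OrgR libraries of the same numbers. The esc libraries lay between the OrgR sets, so the genotypes overlapped. The means were 196 ± 2.7 RPKM in esc and 203 ± 52 RPKM in OrgR (SD, n = 2 sets each; log2 change -0.03 ± 0.19, adjusted p = 0.909). Without OrgR set 1 the log2 change was -0.29 and without OrgR set 2 it was 0.23, and neither passed (adjusted p = 0.119 and 0.183). The gene lies on chromosome 4 from 1060969 to 1077273, on the plus strand, and shares 6.56% of its exonic bases with other annotated elements on the other strand.

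These 3 genes were also those with the widest gap between the OrgR sets. On the log2(RPKM + 1) scale, OrgR set 2 minus OrgR set 1 was -0.80 for Adh, -0.73 for Lsp2 and 0.52 for apolpp, while the median absolute gap of all tested genes was 0.14. For Adh 98.4% of tested genes had a smaller gap, for Lsp2 97.8% and for apolpp 93.8%. The gaps between the esc sets were 0.09, -0.12 and 0.03 in the same order, and the median absolute gap there was 0.13. The late cuticle genes summed to 5291 and 5271 RPKM in the libraries of esc set 1 and 10368 and 9607 RPKM in those of esc set 2, and to 18.5 and 16.5 RPKM in OrgR set 1 and 16.9 and 16.6 RPKM in OrgR set 2. The part of embryo age in the set gaps was not tested.

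**Figure D2:**
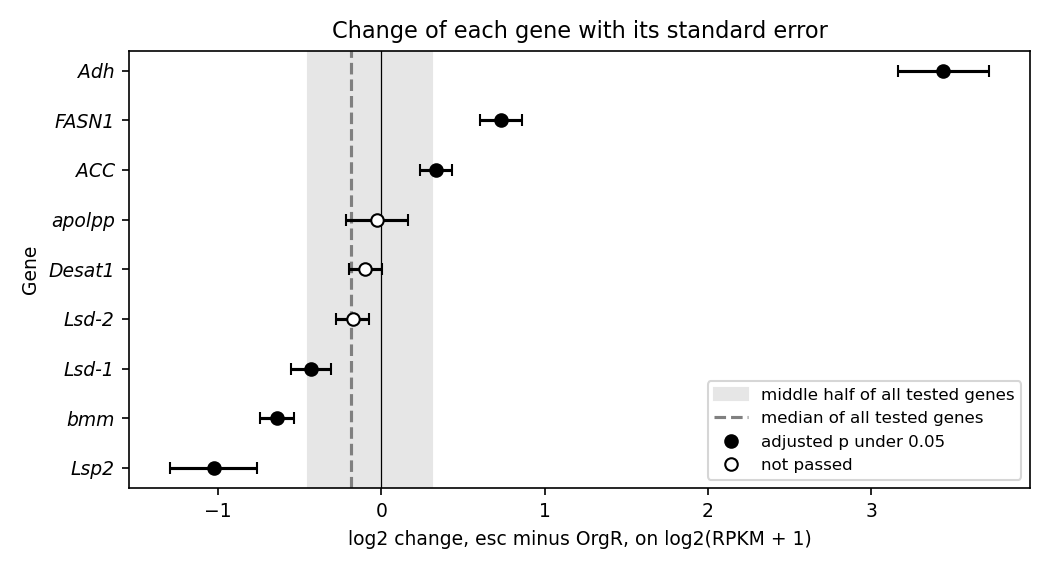
log2 change of each gene, esc minus OrgR on log2(RPKM + 1), with its standard error. Filled points passed the adjusted threshold of 0.05, the grey band runs between the quartiles of all tested genes (-0.45 to 0.31), and the dashed line is their median (-0.18). Adh stands far to the right at 3.44, and Lsp2 lies lowest at -1.03.

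Of the genes of the lipid droplet surface, the lipase gene bmm and the perilipin gene Lsd-1 fell in esc, and the other perilipin gene, Lsd-2, did not pass. The brummer gene bmm encodes the fly counterpart of adipose triglyceride lipase, which starts the breakdown of stored fat. It had 32.9, 33.3, 36.6 and 38.5 RPKM in esc libraries 1-1, 1-2, 2-1 and 2-2 and 57.3, 56.4, 52.8 and 54.9 RPKM in the OrgR libraries of the same numbers. Each esc library was lower than each OrgR library, and the gap between genotypes was wider than that between sets. The means were 35.3 ± 3.2 RPKM in esc and 55.4 ± 2.1 RPKM in OrgR (SD, n = 2 sets each), 1.57-fold lower in esc (log2 change -0.64 ± 0.10, adjusted p = 0.0116). Leaving out a set moved the adjusted p to 0.0502 without esc set 1, 0.0556 without OrgR set 1 and 0.0517 without OrgR set 2, and to 0.0356 without esc set 2. It spans 3L from 14776496 to 14786412, on the minus strand, with no exon shared with another gene.

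Lsd-1 encodes perilipin 1, which coats lipid droplets and helps lipases to reach them when fat is mobilised. It had 43.4, 41.0, 37.0 and 36.2 RPKM in esc libraries 1-1, 1-2, 2-1 and 2-2 and 54.6, 59.4, 50.7 and 48.8 RPKM in the OrgR libraries of the same numbers. The genotypes did not overlap, and set 2 was below set 1 in each. The means were 39.4 ± 4.0 RPKM in esc and 53.4 ± 5.1 RPKM in OrgR (SD, n = 2 sets each), 1.35-fold lower in esc (log2 change -0.43 ± 0.12, adjusted p = 0.0416). This call stood near the threshold and ended in 11 of 24 other settings. It ended under median-of-ratios scaling (log2 change -0.24, adjusted p = 0.175) and after quantile normalization (adjusted p = 0.0696). Centring each library on its median value also ended the call (adjusted p = 0.0714), and left a median log2 change of -0.14 over all tested genes. Without any one of the sets the call ended as well, with log2 changes of -0.53 and -0.33 without esc sets 1 and 2. Without OrgR sets 1 and 2 these were -0.33 and -0.52. The call also ended without the single libraries esc 1-2 (adjusted p = 0.0563) and OrgR 2-1 (0.0545). Its span on 3R runs from 23763857 to 23766662, on the plus strand, and shares 7.35% of its exonic bases with CG10214 on the other strand.

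Lsd-2 encodes perilipin 2, which shields stored fat from lipases. It was the more abundant of the perilipin genes, with 206, 211, 173 and 188 RPKM in esc libraries 1-1, 1-2, 2-1 and 2-2 and 216, 222, 215 and 225 RPKM in the OrgR libraries of the same numbers. All esc libraries were below all OrgR libraries, esc set 2 more so than esc set 1. The means were 195 ± 20 RPKM in esc and 219 ± 0.75 RPKM in OrgR (SD, n = 2 sets each), and the difference did not pass (log2 change -0.18 ± 0.10, adjusted p = 0.205). Its log2 change equalled that of the median gene within 0.01, and under median-of-ratios scaling it was 0.01. It passed only when the 8 libraries were counted as separate samples (adjusted p = 0.0317). The gene lies on the X chromosome from 15069127 to 15076220, on the minus strand, with no shared exon.

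Ratios of RPKM within a library do not depend on how the library is scaled. Their log2 differences, esc minus OrgR, and the permutation tests are on RPKM + 1. These do depend on scaling, and differences are shrunk for genes with low values such as FASN1. Lsd-1 was 0.211, 0.194, 0.213 and 0.193 times Lsd-2 in the esc libraries and 0.253, 0.268, 0.236 and 0.217 times in the OrgR libraries, so it was lower in all esc libraries (difference in log2 ratio -0.25). Lsd-2 accounted for 82.4% to 83.8% of the summed perilipin level in esc and 78.9% to 82.2% in OrgR. The lipase gene bmm was 0.159, 0.158, 0.211 and 0.205 times Lsd-2 in the esc libraries and 0.265, 0.255, 0.246 and 0.244 times in the OrgR libraries, again lower in all esc libraries (difference in log2 ratio -0.46). Against Lsd-1 the bmm ratio overlapped, at 0.756 to 1.06 in esc and 0.95 to 1.13 in OrgR (difference in log2 ratio -0.21). With 2 sets per genotype an exact permutation test cannot give a two-sided p below 0.333. That was the p for Lsd-1 over Lsd-2 and for bmm over Lsd-2, while bmm over Lsd-1 had an exact p of 0.667. Adjusted over the 5 ratios computed, these exact permutation p-values were 0.556, 0.556 and 0.833.

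Of the genes of fatty acid synthesis, FASN1 and ACC rose in esc, and Desat1 did not pass. FASN1 encodes a fatty acid synthase. It had 4.91, 4.82, 5.07 and 5.27 RPKM in esc libraries 1-1, 1-2, 2-1 and 2-2 and 2.65, 3.19, 2.38 and 2.32 RPKM in the OrgR libraries of the same numbers. The genotypes stood apart, and the libraries of esc varied little. The means were 5.01 ± 0.22 RPKM in esc and 2.63 ± 0.41 RPKM in OrgR (SD, n = 2 sets each), a 1.90-fold difference (log2 change 0.73 ± 0.13, adjusted p = 0.0136). After quantile normalization the log2 change was 0.16 and did not pass (adjusted p = 0.266), and the call also ended without esc set 2 (0.059) and without OrgR set 2 (0.0628). FASN1 spans 2L from 3056598 to 3068177, on the plus strand, next to its paralog FASN2. FASN2 was below the filter, at 0.469 RPKM in esc and 0.204 RPKM in OrgR.

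ACC encodes acetyl-CoA carboxylase, which makes the malonyl-CoA that fatty acid synthase extends. It had 18.4, 18.5, 17.9 and 17.9 RPKM in esc libraries 1-1, 1-2, 2-1 and 2-2 and 13.5, 14.1, 14.4 and 14.8 RPKM in the OrgR libraries of the same numbers. All esc libraries were above all OrgR libraries. The means were 18.2 ± 0.40 RPKM in esc and 14.2 ± 0.55 RPKM in OrgR (SD, n = 2 sets each), a 1.28-fold difference (log2 change 0.34 ± 0.10, adjusted p = 0.0423). The call ended without any one of the sets (adjusted p = 0.166 without esc set 1, 0.144 without esc set 2, 0.154 without OrgR set 1 and 0.114 without OrgR set 2), without the single library OrgR 2-1 (0.0562) and with no filter on low values (0.0583). ACC spans 2R from 7974115 to 7991862, on the minus strand, with no shared exon.

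Desat1 encodes a desaturase that introduces a double bond into newly made fatty acids. It had 55.9, 55.0, 54.4 and 51.2 RPKM in esc libraries 1-1, 1-2, 2-1 and 2-2 and 52.8, 55.8, 62.9 and 60.7 RPKM in the OrgR libraries of the same numbers. The genotypes overlapped, and OrgR set 2 was the highest. The means were 54.1 ± 1.8 RPKM in esc and 58.1 ± 5.3 RPKM in OrgR (SD, n = 2 sets each; log2 change -0.10 ± 0.10, adjusted p = 0.457), and the log2 change was 0.09 under median-of-ratios scaling. Desat1 spans 3R from 12439600 to 12447616, on the plus strand, beside its paralog Desat2, which had 0.622 RPKM in esc and 0.706 RPKM in OrgR.

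FASN1 stood higher relative to ACC in every esc library, at 0.266, 0.26, 0.283 and 0.295 times ACC in esc and 0.196, 0.226, 0.166 and 0.157 times in OrgR (difference in log2 ratio 0.39, exact permutation p = 0.333, the smallest that 2 sets per genotype allow, and 0.556 adjusted over the 5 ratios). The fifth ratio, apolpp over Apoltp, overlapped, at 7.91 to 9.22 in esc and 6.67 to 9.47 in OrgR (difference in log2 ratio 0.10, exact permutation p = 1.00, adjusted 1.00). Apoltp encodes a lipid transfer particle protein of the same lipoprotein system.

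The order of the levels differed between genotypes mainly through Adh and Lsp2. In esc it ran from Adh through apolpp, Lsd-2, Desat1, Lsd-1, bmm, ACC and FASN1 to Lsp2. The library ranges of apolpp and Lsd-2 overlapped, as did those of Lsd-1 and bmm. In OrgR it ran from Lsd-2 through apolpp, Adh, Desat1, bmm, Lsd-1, ACC and Lsp2 to FASN1. Neighbours whose ranges overlapped there were Lsd-2 and apolpp, Desat1 and bmm, bmm and Lsd-1, and Lsp2 and FASN1. Summed, the 9 genes came to between 1492 and 1542 RPKM in esc libraries and between 687 and 718 RPKM in OrgR libraries. Adh made up 62.6% to 65.8% of that sum in esc and 9.24% to 17.1% in OrgR. Without Adh, the other 8 summed to between 518 and 562 RPKM in esc and between 570 and 652 RPKM in OrgR.

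Patterns most like those of the genes that changed most were sought over the 8 libraries by the root mean square difference of centred log2 values. For Adh the nearest tested genes were CG13297 (difference 0.12; 242 RPKM in esc and 20.4 RPKM in OrgR, adjusted p = 0.00127) and CG34276 (difference 0.12; 71.2 RPKM in esc and 5.91 RPKM in OrgR, adjusted p = 0.00366). For Lsp2 they were Fpps (difference 0.08; 202 RPKM in esc and 408 RPKM in OrgR, adjusted p = 0.0258) and CG9993 (difference 0.11; 3.06 RPKM in esc and 6.57 RPKM in OrgR, adjusted p = 0.0641). These genes were selected for their likeness in the same values, so their changes and adjusted p-values follow from that choice. In RPKM, Fpps was 2.03-fold and Lsp2 3.30-fold lower in esc, so their likeness depends on the added 1.

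Of 111 other listed genes that were tested 35 rose and 23 fell, and over all tested genes 20.9% rose and 31.6% fell. The 111 include the 12 tested late cuticle genes, of which 10 rose and none fell. The wider fat body list gave 1 rise and 3 falls among the 4 of 8 markers that were tested, with a median log2 change of -0.59. The rise was that of Adhr, which shares all its exonic bases with Adh. The GATA factor gene srp, which specifies the fat body and also blood cells, fell to 35.2 RPKM in esc, against 58.7 RPKM in OrgR (log2 change -0.72 ± 0.10, adjusted p = 0.0087, passed in all 24 other settings). The annotation shares 16.1% of the exonic bases of srp with a noncoding RNA on the same strand, so part of its value is uncertain. The nuclear receptor gene svp fell to 17.05 RPKM in esc, against 27.25 RPKM in OrgR (-0.65 ± 0.10, adjusted p = 0.010). The call of svp ended without esc set 2 or without OrgR set 2, with adjusted p-values of 0.0579 and 0.055 in that order. Lsp1gamma, another serum protein gene, had 0.394 RPKM in esc and 1.02 RPKM in OrgR and fell (-0.54 ± 0.13, adjusted p = 0.0259). It was the third that fell and is named for that, and it passed the filter only through its OrgR values. Below the filter, Fbp1 was at 0.298 RPKM in esc and 0.0483 RPKM in OrgR, and Fbp2 was at 0.236 RPKM in esc and listed at the floor in every OrgR library. Lsp1alpha and Lsp1beta were under 0.05 RPKM in both genotypes. The Lsp1 and Fbp genes encode larval fat body products. Over the whole list the summed level was 65.1 to 68.3 RPKM in esc and 89.0 to 96.1 RPKM in OrgR. Of the 3 genes of fat body products above, Lsp2 fell, apolpp did not pass and Adh rose. In whole embryos, changes in the number of fat body cells, in RNA per cell and in embryo age cannot be told apart.

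Other tissues of the embryo also express some of the genes. The counts below stand beside 20.9% rises and 31.6% falls over all tested genes. Of 6 tested oenocyte markers (cells of the body wall that make cuticle hydrocarbons), 2 rose and none fell: the P450 gene Cyp4g1, with 39.2 RPKM in esc and 15.5 RPKM in OrgR (log2 change 1.28 ± 0.14, adjusted p = 0.00502), and FarO, a fatty acyl-CoA reductase gene listed as CG18031, with 9.996 RPKM in esc and 6.28 RPKM in OrgR (0.60 ± 0.17, adjusted p = 0.0376). FarO did not pass in 6 of 24 other settings. The oenocyte list summed to 183 to 199 RPKM in esc and 154 to 174 RPKM in OrgR, and eloF was below the filter. Of 9 tested hemocyte markers 3 rose and 3 fell, and the list summed to 410 to 468 RPKM in esc and 262 to 335 RPKM in OrgR. The collagen IV genes vkg (log2 change 1.37, adjusted p = 0.0038) and Col4a1 (1.17, adjusted p = 0.00962), which the fat body also expresses, rose. The glial and hemocyte regulators gcm (-1.02, adjusted p = 0.00395) and gcm2 (-0.74, adjusted p = 0.0147) fell, the second not in 3 of 24 other settings. The defining hemocyte genes Hml, He and eater were below the filter. Of 9 tested midgut markers 3 rose, led by Try29F (3.27, adjusted p = 0.0123), a trypsin gene, and the maltase gene Mal-A1 (3.25, adjusted p = 0.000623). Another 4 fell, led by Vha100-4 (-2.07, adjusted p = 0.00161) and Ptx1 (-1.42, adjusted p = 0.0019). The midgut list summed to 208 to 236 RPKM in esc and 241 to 266 RPKM in OrgR. Try29F did not pass without OrgR set 1 or without OrgR set 2. The part of these tissues, and of late embryonic age, in the changes of Adh, FASN1 and ACC was not tested. The late cuticle genes tested had a median log2 change of 5.68, led by Cpr65Ea (9.39) and TwdlM (8.997). Of the yolk protein genes, which are maternal products, only Yp3 passed the filter, and it fell (2.45 RPKM in esc and 5.69 RPKM in OrgR, log2 change -0.95, adjusted p = 0.00777).

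**Figure D3:**
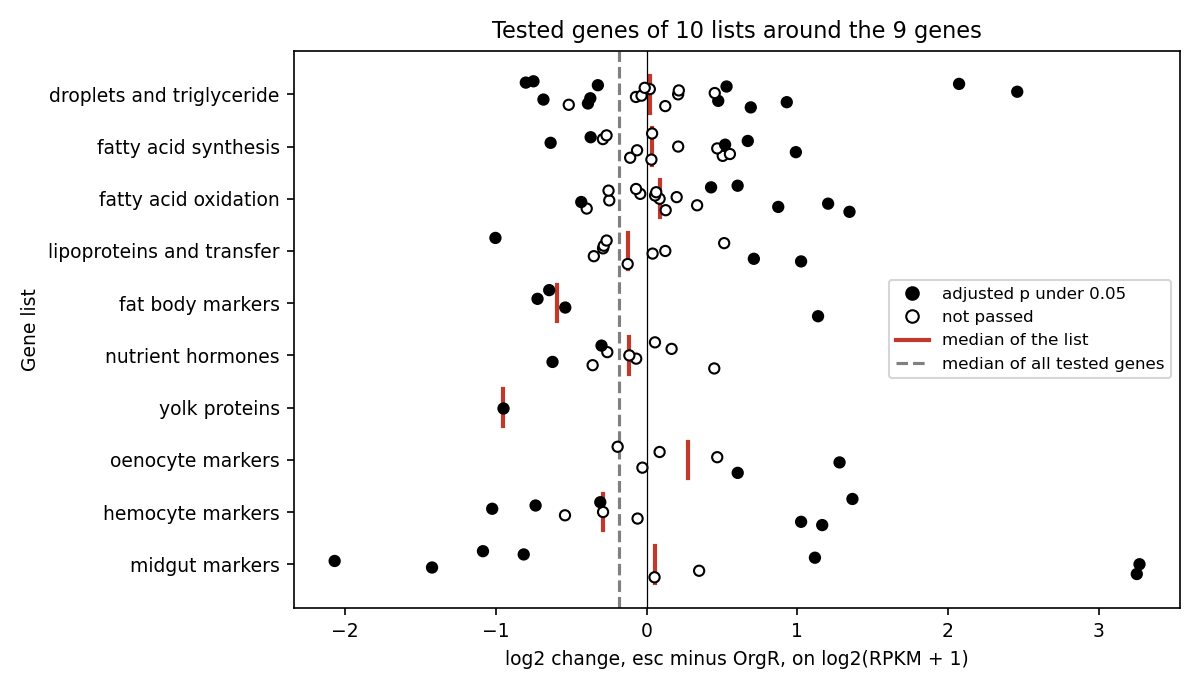
log2 change (esc minus OrgR, on log2(RPKM + 1)) of each tested gene in 10 lists, 1 point per gene, filled where the adjusted p was under 0.05. Red bars are list medians and the dashed line is the median of all tested genes (-0.18). Genes of each of the 4 lipid lists lie on both sides of that line.

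Around the droplet genes, 21 genes of droplets, triglyceride synthesis and lipolysis were all tested, and 6 rose, 6 fell and 9 did not pass (median log2 change 0.02). Among all tested genes 20.9% rose and 31.6% fell, with a median log2 change of -0.18. Under median-of-ratios scaling 9 of the 21 rose and 3 fell. The largest rises were those of the lipase genes Lip1 (86.4 RPKM in esc and 15.1 RPKM in OrgR, log2 change 2.46 ± 0.18, adjusted p = 0.0022) and mag, or magro (3.69 RPKM in esc and 0.06825 RPKM in OrgR, 2.07 ± 0.30, adjusted p = 0.00873), which belong to a lipase family distinct from bmm. The largest falls were those of mdy, or midway, which encodes a diacylglycerol acyltransferase (58.3 RPKM in esc and 102.5 RPKM in OrgR, -0.80 ± 0.09, adjusted p = 0.00556), and of mino, or minotaur, a glycerol-3-phosphate acyltransferase gene (12.6 RPKM in esc and 21.8 RPKM in OrgR, -0.75 ± 0.09, adjusted p = 0.00674). The annotation shares 42.4% of the exonic bases of mino with genes and noncoding RNAs on the other strand, so its value is uncertain. Calls of these 4 held in all other settings that tested them. The gene mag passed the filter only through its esc values, so its rise is partly fixed by the filter. Its log2 change ran from 1.53 to 4.42 over the other settings, so that its size depends on these choices.

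Of 20 other genes of fatty acid synthesis, elongation and their regulators, 19 were in the table and 15 were tested. There were 3 rises, 2 falls and 10 that did not pass (median log2 change 0.04). The shares over all tested genes were 20.9% rises and 31.6% falls, with a median log2 change of -0.18. Dbi, an acyl-CoA binding protein gene, had 165 RPKM in esc and 79.6 RPKM in OrgR (0.99 ± 0.31, adjusted p = 0.0497), and its call ended in 10 of 24 other settings. The site-2 protease gene S2P had 9.15 RPKM in esc and 5.39 RPKM in OrgR and rose (0.67 ± 0.12, adjusted p = 0.014), and the site-1 protease gene S1P had 5.69 RPKM in esc and 9.41 RPKM in OrgR and fell (-0.64 ± 0.12, adjusted p = 0.015). Both proteases are known from mammals to release SREBP, the lipid-sensing factor that drives FASN1 and ACC. SREBP itself had 46.7 RPKM in esc and 60.6 RPKM in OrgR and fell (-0.37 ± 0.09, adjusted p = 0.0281). Its call ended in 8 of 24 other settings, among them under median-of-ratios scaling (adjusted p = 0.162), after centring (0.0524), after quantile normalization (0.0592), and without any one set (0.0681 to 0.137). The calls of S2P and S1P ended in 4 and 5 of 24 other settings.

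Of 17 tested genes of fatty acid oxidation, 5 rose, 1 fell and 11 did not pass (median log2 change 0.09). All tested genes gave 20.9% rises, 31.6% falls and a median log2 change of -0.18. The acyl-CoA oxidase genes Acox57D-d (10.95 RPKM in esc and 3.765 RPKM in OrgR, log2 change 1.35 ± 0.19, adjusted p = 0.00884) and Acox3, listed as CG9527 (61.65 RPKM in esc, 2.37-fold the OrgR level, 1.20 ± 0.14, adjusted p = 0.00585), rose most. These enzymes start the peroxisomal pathway in other animals, and both calls held in all 24 other settings. The mitochondrial carnitine palmitoyltransferase gene CPT2 fell (12.4 RPKM in esc and 17.1 RPKM in OrgR, -0.43 ± 0.10, adjusted p = 0.0242), though not in 6 of 24 other settings, median-of-ratios scaling among them.

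Of 12 genes of lipoproteins, their receptors and lipid transfer, 11 were tested, and 2 rose, 1 fell and 8 did not pass (median log2 change -0.13). For this list and the next, all tested genes gave 20.9% rises, 31.6% falls and a median log2 change of -0.18. Both lipophorin receptor genes were the rises, LpR1 (7.04 RPKM in esc and 2.96 RPKM in OrgR, 1.03 ± 0.13, adjusted p = 0.00643) and LpR2 (4.79 RPKM in esc and 2.55 RPKM in OrgR, 0.71 ± 0.18, adjusted p = 0.0303). LpR1 passed in all 24 other settings, and LpR2 did not pass in 6, with a log2 change of 0.16 after quantile normalization. The scavenger receptor gene santa-maria fell (10.7 RPKM in esc and 22.4 RPKM in OrgR, -1.003 ± 0.10, adjusted p = 0.00419). The particle assembly gene Mtp (90.6 RPKM in esc and 114.9 RPKM in OrgR, -0.35, adjusted p = 0.1035) and Apoltp (23.2 RPKM in esc and 25.4 RPKM in OrgR, -0.13, adjusted p = 0.346), which act together with apolpp, did not pass, and they were chosen for that role. Of 9 tested genes of nutrient hormone signalling none rose and 2 fell, the kinase gene Akt1 (-0.62, adjusted p = 0.0243) and the insulin receptor substrate gene chico (-0.30, adjusted p = 0.0481). The call of chico ended in 13 of 24 other settings and that of Akt1 in 4, and both ended under median-of-ratios scaling.

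Next, 23 tested genes that overlap 1 of the 9 or lie nearest to it on either side were examined. This set was chosen after the values of the 9 were seen. Of the 23, 1 rose (Adhr, which shares all its exonic bases with Adh), 9 fell and 13 did not pass. Over all tested genes 20.9% rose and 31.6% fell. The largest change was that of CG33648, the nearest tested gene before Adh at a distance of 89895 bases, with 0.2005 RPKM in esc and 4.27 RPKM in OrgR (log2 change -2.13, adjusted p = 0.0011). It passed the filter only through its OrgR values. The nearest genes on either side of Lsd-1 fell, CG10217 (log2 change -0.62, adjusted p = 0.047) and CG10375 (-0.51, adjusted p = 0.014), as did those of bmm, mop (-0.40, adjusted p = 0.0313) and Tdrd3 (-0.58, adjusted p = 0.0168). The neighbours of Lsp2, yps (-0.55, adjusted p = 0.0186) and CG11534 (-0.40, adjusted p = 0.0367), also fell. On either side of ACC, which rose, CSN4 (-0.37, adjusted p = 0.0279) and Hey (-0.55, adjusted p = 0.0134) fell. The overlapping genes CG10214 at Lsd-1 (-0.20, adjusted p = 0.15) and Nup44A at ACC (-0.33, adjusted p = 0.0722) did not pass.

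**Figure D4:**
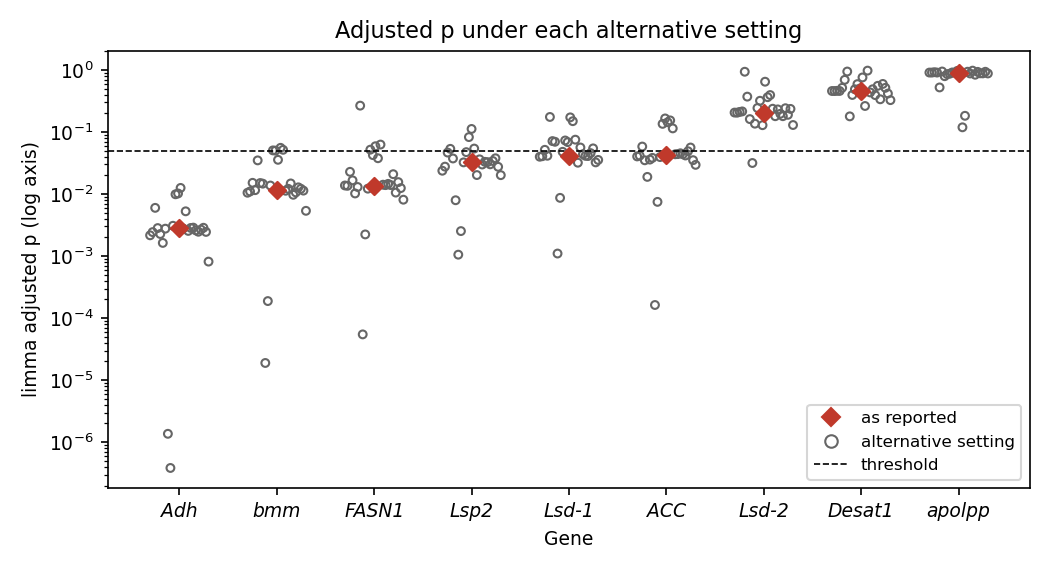
limma adjusted p (log axis) of each gene as reported (red diamond) and under each alternative setting (grey circles, 24 per gene and 23 for Lsp2), with the threshold of 0.05 dashed. All points of Adh lie under the line, those of the other 5 called genes and of Lsd-2 fall on both sides, and Desat1 and apolpp lie above it throughout.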

How the data were processed

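The authors deposited a linear table of RPKM values for 17321 genes in 8 libraries. Per the labels' protocols, libraries were unstranded and read as pairs of 150 bp. The submitters' processing notes name dm6. Aligner, counter and gene models are not given in the sources used here. Cells at the table's minimum of 0.001 RPKM, 27.6% of all, were treated as a floor. Positions came from the Ensembl annotation (1-based), matched by symbol. Relative depth was read from ratios between libraries of low values (0.06 to 1.5 RPKM).

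Values were taken as log2(RPKM + 1), averaged within sets and fitted with limma 3.58.1 in R 4.3.3 (lmFit, eBayes with trend, two-sided, 2 residual degrees of freedom, 4.55 after moderation), with Benjamini-Hochberg adjustment over 10547 genes. The script was tested on simulated data. No label says that sets were separate collections, so the p-values reflect only how far these sets spread, possibly for technical reasons. The 9 genes and the gene lists were chosen with earlier results of these data known. From each list up to 2 largest rises and 2 largest falls past the threshold are named; others are named for a reason given beside them. Of 141 listed genes 140 were in the table, 17 under an older symbol. Neighbours and the crossed set numbers were chosen after the values were seen. Ratios were compared by exact permutation of set means. Sequences were not used here.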

Additional observations from a re-analysis of the deposited data

How the results depend on the processing

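Across 24 other settings, Adh kept its call and direction, with a log2 change of 3.04 to 3.84. As deposited 2208 genes rose and 3329 fell, 39.9% rises. Falls numbered 1409 under median-of-ratios scaling (64.2% rises), 5050 with 8 libraries as replicates and 899 with the set number as a replicate block, where 2467 genes changed (63.6% rises). Leaving out a set or library gave 1302 to 2237 rises and 736 to 3509 falls, 2071 to 5730 in all, lowest for rises and in all without OrgR set 2 and for falls without esc set 2. By set, 1352 fell and 3209 changed without esc set 1, 736 and 2358 without esc set 2, 1045 and 2652 without OrgR set 1, and 769 and 2071 without OrgR set 2; fewer samples enter these fits, and the remaining set is taken to vary as the other genotype does.

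Of the 9 genes, 1 fell under median-of-ratios scaling, and 1 rose and 1 fell with the replicate block. Left-out sets or libraries gave 1 to 3 rises and 0 to 3 falls. Of the other listed genes, late cuticle genes included, 35 rose and 23 fell as deposited. Falls numbered 14 under median-of-ratios scaling and 12 with the replicate block, and left-out sets or libraries gave 21 to 37 rises (23 without OrgR set 1) and 10 to 23 falls (11 without esc set 2, 14 without esc set 1 or OrgR set 1).

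Under median-of-ratios scaling the log2 change was 0.16 for apolpp, 0.0115 for Lsd-2, 0.0883 for Desat1, -0.24 for Lsd-1 and -0.91 for Lsp2, the first 3 with the sign turned and the others no longer passing. Centring each library on its median value gave 0.0157 for apolpp and -0.38 for Lsd-1. Quantile normalization gave -0.34 for Lsd-1 and 0.16 for FASN1. With no filter, Lsd-1 (-0.43) and ACC (0.34) did not pass, with more genes tested. With 8 libraries as replicates Lsd-2 passed (-0.18), and the log2 ratio differences of Lsd-1 over Lsd-2 (-0.25), bmm over Lsd-2 (-0.46) and FASN1 over ACC (0.39) reached an exact permutation p of 0.0286. This is the smallest p that 4 libraries per genotype allow, and it is not adjusted over the 5 ratios. The setting also counts libraries of a set as independent, which the labels do not say. The cause of the other changes was not tested.

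Left-out sets or libraries gave log2 changes of -0.29 to 0.23 for apolpp, -0.53 to -0.33 for Lsd-1, -0.73 to -0.55 for bmm, 0.62 to 0.84 for FASN1, 0.30 to 0.37 for ACC and -1.39 to -0.66 for Lsp2. Without esc set 1 they were 0.32 for ACC and -1.09 for Lsp2, without esc set 2 they were 0.70 for FASN1, 0.36 for ACC and -0.97 for Lsp2, and without OrgR sets 1 and 2 bmm had -0.60 and -0.68 in that order. Without OrgR set 2, Lsd-1 had -0.52. Without single OrgR libraries 1-1 and 1-2, Lsd-1 had -0.46 and -0.40, and ACC 0.32 and 0.35. The ratio of apolpp over Apoltp turned to -0.14 without OrgR set 1.

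With the replicate block the calls of Lsd-1 (-0.43, limma adjusted p = 0.0731), bmm (-0.64, 0.0505), FASN1 (0.73, 0.052) and ACC (0.34, 0.135) ended. The labels do not say whether equally numbered sets belong together. Deviations of equally numbered sets had a correlation of -0.34 across genes, which cannot show whether they do. With set numbers crossed, a choice made after seeing the data, 2519 genes rose and 4198 fell. No counts or absolute depth come with RPKM values, so counting error could not be given. The planned search of promoters for a motif was not run.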
